A study of Mus musculus with 4 samples.

Results

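The 33 genes described here make cholesterol and fatty acids, control that synthesis or answer to sterol levels. They were chosen by gene name from the 54532 genes of the count file, 7 for the mevalonate steps, 11 for the squalene and sterol steps, 6 for SREBP regulation and sterol transport, 6 for fatty acid synthesis and 3 as liver X receptor targets. Each was counted in 4 mRNA libraries, 1 per group, made from CD11b+Ly6g+ myeloid-derived suppressor cells (MDSCs) that were sorted by flow cytometry from mouse lungs. All groups were C57BL/6 mice, labeled 6 to 8 weeks of age, in the pre-metastatic niche (PMN) model. Every mouse received MCM, the medium conditioned by melanoma cells, into the peritoneum at 300 μl for 10 days, and B16F10 melanoma cells through the tail vein on day 7. The control (Ctrl) group received no peptide. The other groups received TP5, sFD17 or FR17 under the skin from day 3, each at 40 μM/kg/day as the labels state the dose. TP5 is the free pentapeptide thymopentin. FR17 carries TP5 on a self-assembling peptide backbone through a linker that MMP2 cleaves, and sFD17 carries a scrambled pentapeptide in its place and serves as the assembly control. Lungs were taken on day 10 and the sorted cells of 10 to 12 mice were pooled into each library, so that with 1 library per group no difference below has a replicate check and none is given a p-value.

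Cells build cholesterol from acetyl-CoA through mevalonate, isoprenoids, squalene and lanosterol, and fatty acids from acetyl-CoA through malonyl-CoA. The genes of both routes are switched on by SREBP transcription factors, which the escort protein SCAP carries to the Golgi when membrane sterol is low and which INSIG proteins hold in the endoplasmic reticulum when it is high. Sterol excess instead activates the liver X receptors, which raise the export pumps ABCA1 and ABCG1 and also SREBP-1c. In myeloid cells these programs are known for their part in membrane supply, foam cell formation and inflammatory signaling.

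Promoter sequence from RefSeq (GRCm38.p6, 250 bases before to 50 bases after a start site) was available for 26 of the 33 genes. The windows were searched on both strands for CCAAT, the box bound by NF-Y, a common partner of SREBPs, for GGGCGG, the box bound by Sp1, for TCACNCCAC, a strict core of the sterol regulatory element, and for TGACCNNNNGTAACC, a direct repeat of the kind that liver X receptors bind. The last was written after the Abca1 promoter had been read, so its match there was given in advance. CCAAT was found in 21 of the 26 genes (80.8%) and in 41.1% of 27025 genes with a window. The 27025 were taken whether or not they were expressed in these cells, so none of these shares is matched for expression. GGGCGG was found in 22 (84.6%) and in 38.2% of all genes. TCACNCCAC was found in 1, Hmgcs1 (3.85%), and in 1.44% of all genes. The direct repeat was found in 3, Abca1, Fasn and Srebf1 (11.5%), and in 9 of the 27025 genes (0.0333%). Of the 5 promoters below, that of Hmgcs1 holds the sterol element and those of Fasn, Srebf1 and Abca1 hold the direct repeat. The printed stretch of Mvk holds the most CCAAT boxes of the 5. Capitals mark matches of TCACNCCAC, CCAAT and the direct repeat on either strand, and each stretch ends at the base before the start site.
Hmgcs1 promoter, chr13:119690191-119690350, plus strand: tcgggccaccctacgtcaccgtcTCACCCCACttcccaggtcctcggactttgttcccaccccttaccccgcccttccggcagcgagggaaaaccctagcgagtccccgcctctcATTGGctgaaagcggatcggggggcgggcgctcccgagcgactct
Mvk promoter, chr5:114444109-114444268, plus strand: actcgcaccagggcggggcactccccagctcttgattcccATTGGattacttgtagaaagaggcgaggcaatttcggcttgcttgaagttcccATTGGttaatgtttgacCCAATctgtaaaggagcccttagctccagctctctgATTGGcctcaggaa
Fasn promoter, chr11:120824548-120824777, minus strand: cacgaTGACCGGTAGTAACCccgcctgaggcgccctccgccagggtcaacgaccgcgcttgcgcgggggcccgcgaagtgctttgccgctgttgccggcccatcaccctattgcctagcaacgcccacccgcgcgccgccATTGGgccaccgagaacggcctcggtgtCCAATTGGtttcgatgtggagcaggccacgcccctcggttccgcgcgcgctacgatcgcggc
Srebf1 promoter, chr11:60210472-60210701, minus strand: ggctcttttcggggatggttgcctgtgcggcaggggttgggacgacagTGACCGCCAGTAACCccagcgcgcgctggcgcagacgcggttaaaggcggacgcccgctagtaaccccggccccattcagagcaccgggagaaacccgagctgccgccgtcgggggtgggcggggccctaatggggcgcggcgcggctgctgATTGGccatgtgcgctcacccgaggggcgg
Abca1 promoter, chr4:53159896-53160055, minus strand: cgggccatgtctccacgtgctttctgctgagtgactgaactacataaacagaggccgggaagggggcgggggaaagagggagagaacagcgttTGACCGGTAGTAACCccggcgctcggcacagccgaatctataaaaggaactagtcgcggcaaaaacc
In Fasn a CCAAT box on each strand overlaps the other in the run CCAATTGG. The Srebf1 stretch lies before an internal start site, 12110 bases inside the gene. A match is a string of letters and not a measured binding site.

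**Figure D1:**
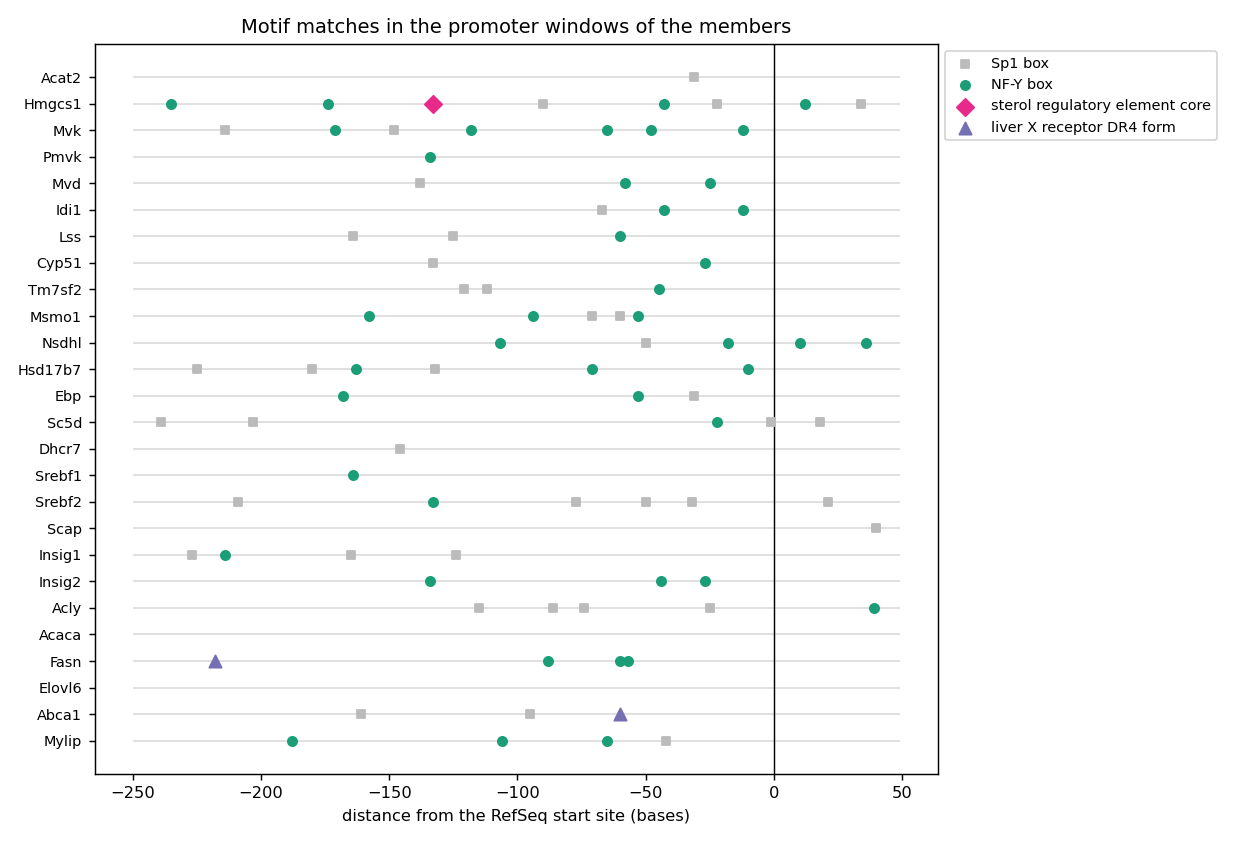
Motif matches in 1 RefSeq window for each of the 26 genes, the window nearest the deposited gene start. The horizontal axis is the distance from the start site in bases, each row is a gene and each symbol the center of a match on either strand. Only Hmgcs1 holds the sterol regulatory element core. Matches in other windows of a gene are not drawn, namely the direct repeat and GGGCGG of Srebf1, CCAAT of Dhcr7 and GGGCGG of Insig2. The start sites drawn for Tm7sf2 and Acaca lie 9347 and 65766 bases inside the deposited gene.

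The libraries held 15543071 to 19638228 counts on all genes. The 33 genes together took 0.129% of the counts in control, 0.138% with TP5, 0.105% with sFD17 and 0.155% with FR17. After scaling with edgeR's TMM factors (0.849 with sFD17 to 1.17 with FR17), their summed level was 1304 CPM (counts scaled to a library of 1000000) in control, 1347 with TP5, 1232 with sFD17 and 1324 with FR17. The sum, to which the most abundant genes add most, differed little between the scaled libraries. Of the 33 genes, 32 had at least 10 counts in every library and were compared, as were the 16369 genes in all that reached 10 counts in any library. Fdps, the farnesyl diphosphate synthase gene, was the exception with 2 counts in control, 4 with TP5, 1 with sFD17 and 8 with FR17, and 26.2% of its 50-base stretches also occur in transcripts of other genes. Its count is therefore uncertain and no fold is given. Fold changes below are log2 differences of TMM-scaled CPM with a prior count of 2, and the range in parentheses is the 95% interval of the pair of counts, which covers counting error only. Scaling by library size alone would move the median log2 fold change of all genes from 0.00 to 0.05 with TP5, from −0.03 to −0.23 with sFD17 and from 0.02 to 0.26 with FR17, so smaller differences take the sign of the scaling chosen.

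**Figure D2:**
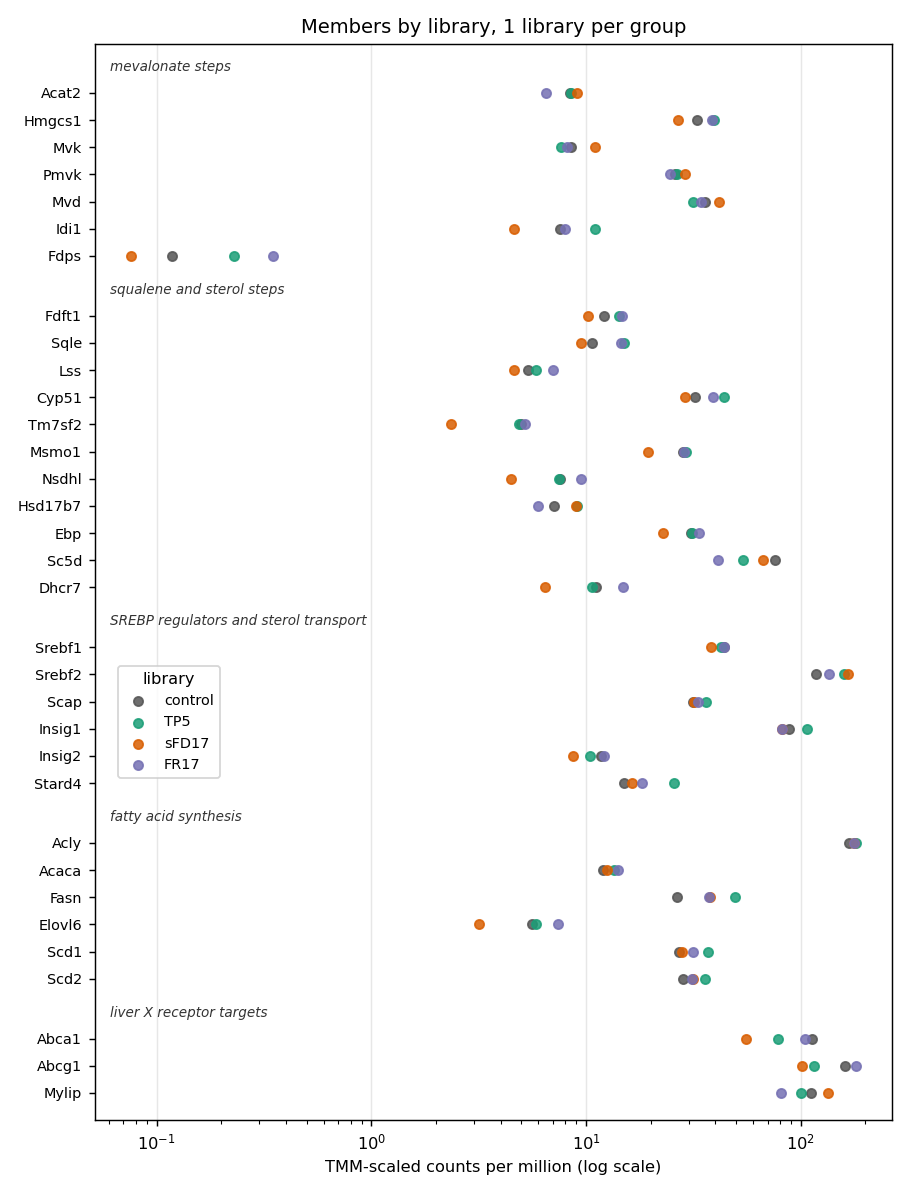
Level of each of the 33 genes in the 4 libraries, in TMM-scaled CPM on a log axis, with 1 point per library. Most rows are narrow, Fdps sits far to the left, and the sFD17 point is the lowest in 9 of the 11 rows of the squalene and sterol steps.

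Per kilobase of gene length, the levels in control ran from 39.5 CPM for Abcg1, a sterol export pump, to 0.499 CPM for Lss, lanosterol synthase, with Fdps below at 0.0281 CPM. After Abcg1 came Mylip, the E3 ligase that degrades lipoprotein receptors, at 34.4 CPM per kilobase, Acly, which makes cytosolic acetyl-CoA from citrate, at 31.8 and Insig1 at 28.4. The sensor and export genes thus stood above most of the enzymes. Srebf2 (16.4) stood above Srebf1 (7.83), and Scd1 (5.57) and Scd2 (5.19) stood above Fasn (2.43) and Acaca (0.700), the acetyl-CoA carboxylase gene. Between the highest and the lowest library the 32 genes differed by 1.08-fold (Acly) to 2.37-fold (Idi1), with a median of 1.49. Of the 32, 6 spanned at least 2-fold (18.8%), against 24.7% of the 13466 genes with at least 10 counts in every library, whose median span was 1.57. The genes of lipid synthesis were thus spread no more widely over the 4 libraries than genes in general.

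Against control, the TP5 library had 0 of the 32 genes at least 2-fold higher, where 3.2% of all genes were, and 0 at least 2-fold lower, where 4.99% were. The median log2 fold change of the 32 was 0.08, beside 0.00 for all genes. Of the 32, 21 lay above 0 (65.6%), as did 50.1% of all genes. The counting interval lay above 0 for 13 genes (40.6%) and below it for 5 (15.6%), beside 18.1% and 18.8% of all genes. Well-counted genes have narrower intervals, so these shares also depend on the level of the genes.

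In sFD17 against control, 0 of the 32 were at least 2-fold higher (5.32% of all genes) and 2 at least 2-fold lower (6.47% of all genes), Tm7sf2 and Abca1. The median was −0.16, beside −0.03 for all genes. Of the 32, 18 lay below 0 (56.2%), as did 52% of all genes. Under library size alone 27 lay below 0, as did 11154 of the 16369 genes. The median was then −0.37, beside −0.23 for all genes. The intervals lay above 0 for 5 genes and below it for 13, and 22.8% and 22.1% of all genes did so.

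In FR17 against control, 0 of the 32 were at least 2-fold higher (3.92% of all genes) and 0 at least 2-fold lower (3.58%). The median was 0.10, beside 0.02 for all genes. Of the 32, 22 lay above 0 (68.8%), as did 52.3% of all genes. Under library size alone 28 lay above 0, as did 11718 of the 16369 genes. The median was then 0.35, beside 0.26 for all genes. Intervals lay above 0 for 14 genes and below it for 5, beside 21.4% and 24.3% of all genes. In none of the 3 comparisons did the share of lipid genes past 2-fold exceed that of all genes, and all 3 share the control library.

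**Figure D3:**
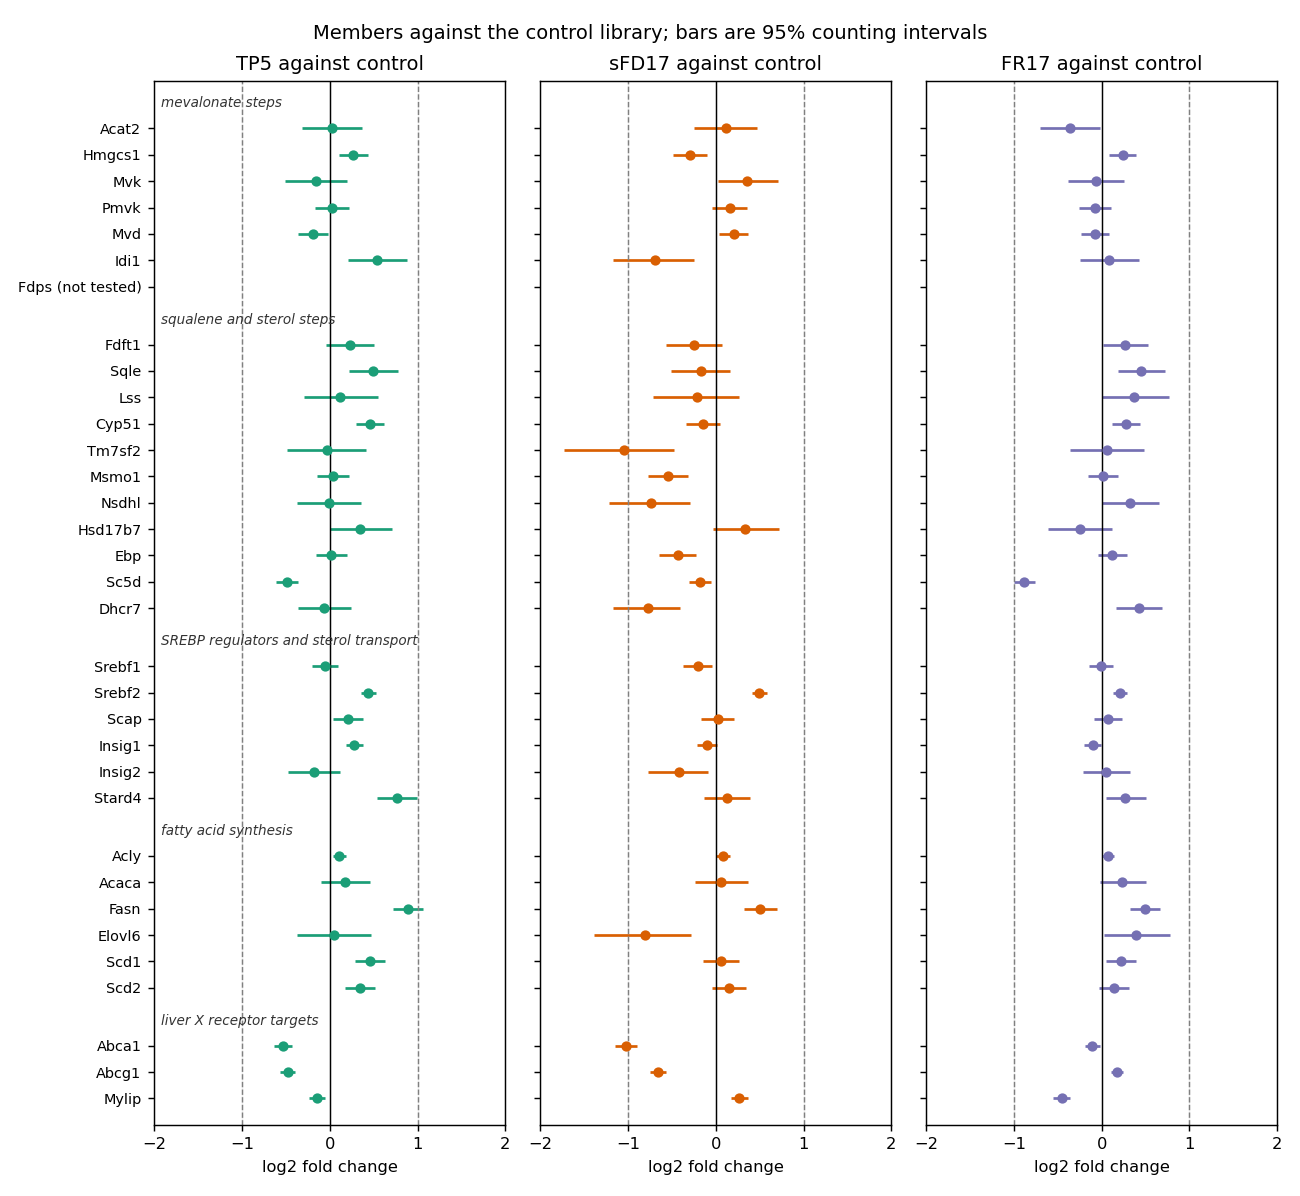
Log2 fold change of each gene against the control library in the TP5, sFD17 and FR17 libraries, with bars for the 95% counting interval and dashed lines at 2-fold. Tm7sf2 and Abca1 with sFD17 are the points beyond a dashed line, and Fasn lies to the right of 0 in all 3 panels.

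Among the mevalonate genes the widest spans lay in Idi1 and then in Hmgcs1. Hmgcs1 (chromosome 13 from 119690379 to 119708260), which makes HMG-CoA, had 555 counts in control, 695 with TP5, 355 with sFD17 and 890 with FR17. Its log2 fold change was 0.27 with TP5 (0.11 to 0.43), −0.29 with sFD17 (−0.48 to −0.09) and 0.24 with FR17 (0.08 to 0.39). It was thus higher than control in TP5 and FR17 and lower in sFD17, each by less than 2-fold. Of its 4594 exon bases, 557 also lie in Gm48342 on the other strand, and strand use in counting is not given in the sources used here. Idi1, which interconverts the isoprenoid building blocks, had 127 counts in control, 192 with TP5, 61 with sFD17 and 183 with FR17. Its scaled level was highest in TP5, with a log2 fold change of 0.54 (0.21 to 0.88), and lowest in sFD17, with −0.69 (−1.17 to −0.25). Of the Idi1 stretches 17.7% are found in 4 other genes, with Gm13502 sharing more than any other of them, so its count is uncertain. The kinase and decarboxylase genes that act on mevalonate differed less, with Mvk between −0.16 and 0.36, Pmvk between −0.07 and 0.16 and Mvd between −0.19 and 0.20 over the 3 comparisons with control. Acat2, the acetoacetyl-CoA thiolase gene, lay between −0.36 and 0.11 and shares 39.1% of its stretches with Acat3. The median of the 6 mevalonate genes was 0.03 with TP5, 0.14 with sFD17 and −0.07 with FR17, and library size alone would turn the last 2 values to −0.08 and 0.18.

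The squalene and sterol steps, which make squalene and turn it into cholesterol, were lowest in the sFD17 library for 9 of 11 genes, where 36.9% of all genes had their lowest level. Their median log2 fold change was 0.04 with TP5, −0.24 with sFD17 and 0.27 with FR17, and all 3 signs were the same under library size alone and under DESeq2's size factors. In the same libraries 10 alveolar macrophage markers had a median log2 fold change of −0.64 with TP5, −2.25 with sFD17 and 0.47 with FR17, and their part in these values was not tested. Their summed level, of which Chil3 holds the most, stood at 0.921, 0.389 and 1.37 of control. In pooled bulk RNA, fewer cells of a type and less RNA per cell cannot be told apart. Tm7sf2 (chromosome 19 from 6062821 to 6077197), a sterol C14-reductase gene, had 84 counts in control, 85 with TP5, 31 with sFD17 and 119 with FR17. The sFD17 library stood apart with a log2 fold change of −1.05 (−1.73 to −0.47), while TP5 (−0.04) and FR17 (0.06) stood at the control level. In GENCODE M21, 532 of the 4403 exon bases of Tm7sf2 also lie in Vps51 on the same strand. The deposited gene length is 5593 bases, so the bases shared in counting are not known and may differ. Dhcr7, which makes the last step to cholesterol, had 187, 186, 85 and 341 counts in control, TP5, sFD17 and FR17. It stood at −0.06 with TP5, −0.77 with sFD17 (−1.17 to −0.40) and 0.42 with FR17 (0.16 to 0.69). Nsdhl, which removes a methyl carbon from the sterol ring, had 127, 131, 59 and 217 counts in the same order. Its values were −0.01 with TP5, −0.74 with sFD17 (−1.22 to −0.29) and 0.33 with FR17 (0.01 to 0.66), the same order of libraries as for Dhcr7.

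Sqle and Cyp51 behaved in another way, since TP5 as well as FR17 lay above control. Sqle, the squalene epoxidase gene, had 180 counts in control, 263 with TP5, 125 with sFD17 and 335 with FR17, with log2 fold changes of 0.49 with TP5 (0.21 to 0.77), −0.17 with sFD17 (−0.51 to 0.17) and 0.45 with FR17 (0.19 to 0.72). Cyp51, the lanosterol demethylase gene, stood at 0.45, −0.14 and 0.28 in the same order. Both were above control in the libraries of the peptides that carry TP5. Msmo1 and Ebp, which act on the sterol ring, were lower in sFD17 at −0.54 (−0.77 to −0.32) and −0.43 (−0.65 to −0.23), and lay at most 0.12 from control in the other 2 libraries. Fdft1, squalene synthase, stood at 0.23, −0.24 and 0.27, and Lss at 0.12, −0.22 and 0.37. For Fdft1, 774 of 4227 exon bases lie in Ctsb on the other strand.

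Sc5d was an exception in this group. Sc5d (chromosome 9 from 42251595 to 42264256), which puts a double bond into the sterol ring, had 1277 counts in control, 945 with TP5, 883 with sFD17 and 942 with FR17. It was highest in control, with log2 fold changes of −0.49 with TP5 (−0.61 to −0.37), −0.18 with sFD17 (−0.30 to −0.05) and −0.88 with FR17 (−1.0 to −0.76). No value in FR17 was lower among the 32 genes, and under library size alone Sc5d stayed below control in each. Hsd17b7, a sterol keto reductase gene, was likewise lowest in FR17, at −0.25 (−0.62 to 0.11), and stood at 0.35 with TP5 and 0.34 with sFD17.

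Among the regulators, Srebf2 (chromosome 15 from 82147181 to 82205379), the gene of the main activator of cholesterol synthesis, had 1986 counts in control, 2798 with TP5, 2189 with sFD17 and 3118 with FR17. All 3 peptide libraries were above control, by 0.44 with TP5 (0.36 to 0.52), 0.50 with sFD17 (0.41 to 0.58) and 0.21 with FR17 (0.13 to 0.29). Its level was thus highest in sFD17, or in TP5 under library size alone. With TMM scaling, sFD17 was the lowest library for 9 of the 11 squalene and sterol genes. It was the highest for 4 of the 6 mevalonate genes, where 31.4% of all genes were highest. Srebf1 (chromosome 11 from 60199089 to 60222581), which drives fatty acid synthesis, had 745, 744, 506 and 1005 counts in control, TP5, sFD17 and FR17. It stood near control in every library, at −0.06 with TP5, −0.20 with sFD17 (−0.37 to −0.04) and −0.01 with FR17, and the counts per gene do not separate its isoforms. Insig1 (chromosome 5 from 28071363 to 28078662), the sterol-dependent anchor of SCAP and itself an SREBP target, had 1485, 1871, 1082 and 1882 counts. TP5 was the highest, with 0.28 (0.18 to 0.38), while sFD17 and FR17 both stood at −0.10, and the FR17 value turns positive under library size alone. Stard4, a carrier of cholesterol between membranes, had 254, 449, 217 and 417 counts. Its log2 fold change of 0.76 with TP5 (0.54 to 0.99) was the second highest of the 32 genes in that library, beside 0.13 with sFD17 and 0.27 with FR17. Scap lay between 0.02 and 0.21, and Insig2 between −0.42 and 0.05.

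Fatty acid synthesis genes were lowest in the control library for 5 of 6 genes, where 16.5% of all genes had their lowest level. They were highest in TP5 for 4 of 6, where 19.8% of all genes were highest. Under library size alone, however, 5 of 6 were below control with sFD17, as were 11154 of the 16369 genes. Fasn (chromosome 11 from 120805846 to 120824547), fatty acid synthase, led this group with 449 counts in control, 865 with TP5, 499 with sFD17 and 858 with FR17. It had the highest log2 fold change of the 32 genes in each of the 3 comparisons with control, 0.89 with TP5 (0.73 to 1.06), 0.51 with sFD17 (0.32 to 0.70) and 0.49 with FR17 (0.33 to 0.66). The same control count stands under all 3 values. In the same libraries the 12 neutrophil markers had medians of 0.10 with TP5, 0.43 with sFD17 and −0.10 with FR17, with 8, 12 and 4 of the 12 above control. The 6 B cell markers summed to 1.71, 1.21 and 1.4 of control, the value with sFD17 being 1.04 under library size alone, and the part of neither in the fatty acid genes was tested. Scd1 (chromosome 19 from 44394451 to 44407709), which desaturates stearoyl-CoA, had 455, 649, 371 and 720 counts in control, TP5, sFD17 and FR17. Its neighbor Scd2 (chromosome 19 from 44293676 to 44306864), with the same enzymatic activity, had 478, 630, 416 and 718. The pair stood at 0.46 and 0.34 with TP5, at 0.06 and 0.16 with sFD17 and at 0.22 and 0.14 with FR17, and 4.56% of the Scd1 stretches and 3.97% of those of Scd2 occur in other genes, chiefly of their own family. Acly stayed within 0.11 of control in every library. Acaca lay between 0.06 and 0.24, with 30.4% of its stretches in other transcripts. Elovl6, which lengthens palmitate, differed from the rest of the group with 95, 102, 42 and 170 counts. It stood at 0.05 with TP5, −0.80 with sFD17 (−1.38 to −0.28) and 0.39 with FR17 (0.03 to 0.78), lowest in sFD17 and highest in FR17 as were Dhcr7 and Nsdhl. The median of the 6 genes was 0.26 with TP5, 0.07 with sFD17 and 0.23 with FR17, and under library size alone the value with sFD17 would be −0.14.

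The export genes were lower in TP5 and sFD17. Abca1 (chromosome 4 from 53030787 to 53159895), which loads cholesterol onto apolipoproteins, had 1903 counts in control, 1370 with TP5, 733 with sFD17 and 2400 with FR17. Its log2 fold change was −0.53 with TP5 (−0.63 to −0.43), −1.02 with sFD17 (−1.15 to −0.90) and −0.11 with FR17 (−0.20 to −0.02), and the FR17 value turns positive under library size alone. Abcg1 (chromosome 17 from 31057698 to 31115777), which exports cholesterol to lipoproteins, had 2711, 2017, 1344 and 4149 counts in the same order. It stood at −0.48 with TP5 (−0.56 to −0.40), −0.66 with sFD17 (−0.75 to −0.56) and 0.17 with FR17 (0.10 to 0.24). Both pumps were thus lowest in sFD17. Mylip (chromosome 13 from 45389742 to 45412022) had 1877, 1764, 1768 and 1859 counts and did not share this order, with −0.14 with TP5, 0.27 with sFD17 (0.17 to 0.36) and −0.46 with FR17 (−0.55 to −0.36). The summed alveolar macrophage markers named above were likewise lowest in sFD17, and 9 of the 10 were below control with TP5. Their part in the values of the pumps was not tested.

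The peptides were given at matched dose and time, and their libraries were compared pair by pair, in 3 pairs with 1 library each and no test. FR17 and sFD17 differ in the pentapeptide they carry. Against sFD17, FR17 had 4 of the 32 genes at least 2-fold higher (11.3% of all genes) and 0 at least 2-fold lower (10.8%). These 4 were Dhcr7 and Elovl6 at 1.19 each (0.86 to 1.57 and 0.72 to 1.74), Tm7sf2 at 1.10 (0.56 to 1.76) and Nsdhl at 1.06 (0.66 to 1.52). A count of 4 in 32 is close to the share over all genes. Under library size alone 11 genes were at least 2-fold higher (25.7% of all genes), and edgeR's exact test, which compares the libraries and not the conditions, called 1, Dhcr7 (12.6% of all genes in either direction). The squalene and sterol steps had a median of 0.56, beside 0.07 for all genes. Of these 11 genes 9 lay above 0, as did 53.6% of all genes. In this comparison the alveolar macrophage markers had a median of 2.58, with 9 of 10 above 0. Those of interstitial macrophages and monocytes had a median of 0.92, with 8 of 10 above 0, and those of T and NK cells 1.62, with 8 of 8. The neutrophil markers had a median of −0.51, with 11 of 12 below 0. The part of these lists was not tested. The mevalonate steps had a median of −0.25, which library size alone would turn to 0.21. At the other end were Mylip at −0.72 (−0.82 to −0.63) and Sc5d at −0.70 (−0.84 to −0.57).

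FR17 and TP5 share the pentapeptide and differ in the assembling backbone and linker. Against TP5, FR17 had 0 of 32 genes at least 2-fold higher (7.04% of all genes) and 0 at least 2-fold lower (2.88%). The values ran from −0.59 for Hsd17b7 (−0.94 to −0.26) to 0.65 for Abcg1 (0.57 to 0.73), with a median of −0.03, which turns to 0.16 under library size alone. Fasn stood at −0.40 (−0.54 to −0.26), Stard4 at −0.49 (−0.69 to −0.30) and Insig1 at −0.38 (−0.47 to −0.29), so these 3 genes were higher in TP5. In this comparison the neutrophil markers had a median of −0.33, with 12 of 12 below 0, and the B cell markers −0.23, with 5 of 6 below. The medians were 1.01 for alveolar macrophages (9 of 10 above 0), 1.81 for T and NK cells (8 of 8) and 1.44 for endothelium (8 of 8). The part of these lists was not tested. The intervals lay above 0 for 4 genes (12.5%) and below it for 12 (37.5%), beside 20% and 26.7% of all genes. Of the 32 intervals 16 held 0, as did 8728 of the 16369 for all genes. No direction can be given for those 16 genes at this depth, which does not show that they were alike.

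Against TP5, sFD17 had 0 of 32 genes at least 2-fold higher (6.74% of all genes) and 2 at least 2-fold lower (5.64%), Idi1 at −1.22 (−1.68 to −0.82) and Tm7sf2 at −1.01 (−1.69 to −0.44). The median of −0.36, beside −0.04 for all genes, was the farthest from 0 among the 6 comparisons. Of the 32 genes 25 lay below 0 (78.1%), as did 53.2% of all genes. Under library size alone the median was −0.62, beside 0.64 in FR17 against sFD17. In sFD17 against TP5 28 of the 32 then lay below 0, as did 11523 of the 16369 genes. The intervals lay below 0 for 19 genes (59.4%), beside 24.7% of all genes. In the same comparison the alveolar macrophage markers had a median of −1.66, with 10 of 10 below 0, and those of interstitial macrophages and monocytes a median of −0.70, with 7 of 10 below 0, and their part was not tested. Mvk at 0.52, Mylip at 0.41, Mvd at 0.39 and Sc5d at 0.31 were the 4 genes whose intervals lay above 0, beside 23.2% of all genes.

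**Figure D4:**
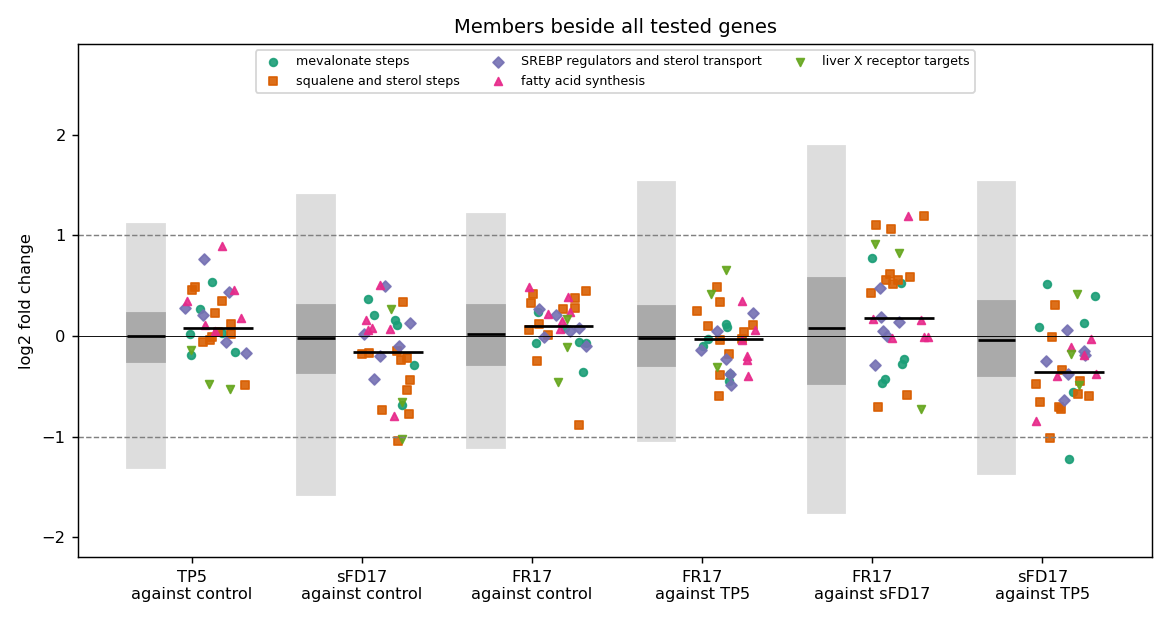
Log2 fold changes of the 32 genes, marked by group, in the 6 comparisons, beside gray bars for all 16369 genes (dark for the middle 50%, light for the middle 95%) with lines at the medians. The squares of the squalene and sterol steps lie mostly below 0 in sFD17 against control and above it in FR17 against sFD17.

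A further 36 genes of the same pathways were read in 3 lists. In TP5 against control 0 of the 36 were at least 2-fold apart (3.2% of all genes higher and 4.99% lower), in FR17 against control 0 (3.92% and 3.58%), and in sFD17 against control 2, both lower (6.47% of all genes lower), which is near the share over all genes. Nceh1, a hydrolase of stored cholesterol esters, had 1140 counts in control, 933 with TP5, 354 with sFD17 and 1790 with FR17. Its log2 fold change in sFD17 was −1.33 (−1.51 to −1.16). Ch25h, which makes 25-hydroxycholesterol, had 98, 85, 23 and 209 counts and stood at −1.67 with sFD17 (−2.46 to −1.07). Both had their lowest level in sFD17 and their highest in FR17. The medians of the 10 other sterol pathway and SREBP genes were 0.13 with TP5, −0.07 with sFD17 and 0.09 with FR17. Those of the 14 other fatty acid genes were 0.04, −0.10 and −0.01, and those of the 12 storage, efflux and oxysterol genes −0.13, 0.00 and −0.02.

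The sorted cells carried neutrophil markers in every library, with 1234 to 2081 counts of Ly6g and 5711 to 6924 of Itgam, the genes of the sorting antigens. Markers of other cell types were also counted, although the sort for CD11b and Ly6g should remove most such cells, and whether they came from other cells or from the sorted cells was not tested. Chil3, the most abundant of the alveolar macrophage list, is also known from the neutrophil lineage. The 10 alveolar macrophage markers summed to 3924 CPM in control, 3614 with TP5, 1527 with sFD17 and 5368 with FR17, with no marker at 0 in any library. Of these markers, 9 of the 10 lay below control with TP5, among them Marco at −1.04, Plet1 at −0.86 and Chil3 at −0.01, whose sign turns under library size alone. With sFD17, 9 of the 10 lay below control, as did 1 with FR17. The sFD17 library, lowest in their summed level, was also the lowest for Abca1, Abcg1, Nceh1, Ch25h, Dhcr7, Nsdhl, Elovl6 and Tm7sf2, and the part of these markers in those results was not tested. The 10 markers of interstitial macrophages and monocytes had medians of −0.44 with TP5, −0.95 with sFD17 and 0.11 with FR17. Of these, 8 of 10 were below control with TP5 and 8 with sFD17, where C1qc stood at −1.87 and C1qa at −1.75, and 7 were above control with FR17. Their summed level was 0.759, 0.985 and 0.890 of control, the last turning to 1.05 under library size alone, and its most abundant gene, Cd14, stood at 0.79 with sFD17.

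The 12 neutrophil markers stood at 1.09, 1.3 and 0.888 of control in sum, and the last value turns to 1.05 under library size alone. Their members differed in direction. With TP5 the granule protein genes Ngp, Camp and Ltf stood at 0.78, 0.89 and 0.82, and the receptor genes Csf3r and Cxcr2 at −0.47 and −0.46. With FR17 the granule genes stood at 0.31, 0.53 and 0.44 and the receptor genes at −1.04 and −0.88.

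Adipocyte markers were read because fat cells make much lipid. The list summed to 36.8 CPM in control, 26.4 with TP5, 12.3 with sFD17 and 52.9 with FR17, or 0.720, 0.334 and 1.44 of control. Most of it was Cidec, a lipid droplet gene, with 504, 358, 66 and 1119 counts, and Retn, with 115, 104, 93 and 88. Lep had 0 counts in all 4 libraries, and Adipoq 0 in control, 1 with TP5, 1 with sFD17 and 0 with FR17, so the defining genes of fat cells were at or near 0. The remaining lists stood between 0.560 and 2.63 of control, the lowest for the 8 fibroblast markers in TP5 and the highest for the 8 T and NK cell markers in FR17.

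**Figure D5:**
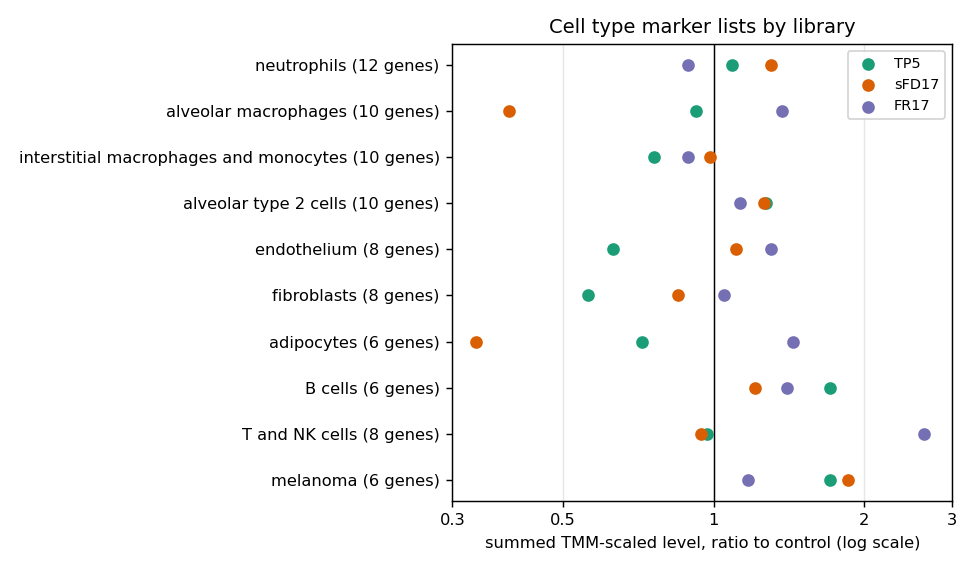
Summed TMM-scaled level of each marker list relative to the control library, on a log axis, with 1 point per peptide library. The alveolar macrophage point of sFD17 lies at 0.389 and that of FR17 at 1.37, and the adipocyte points, which rest on Cidec and Retn, lie in the same order.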

How the data were processed

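Raw counts of reads on genes, not normalized, were deposited by the authors for 4 libraries. Their processing notes name HISAT2 2.0.5, StringTie 1.3.3b, featureCounts 1.5.0-p3, edgeR 3.18.1 and GRCm38.p6, without roles. The library kit keeps the strand, and its use in counting is not given in the sources used here. Group names tied columns to samples, with 0 left unmapped. GENCODE M21 holds 54409 of the gene identifiers, 53462 with identical coordinates.

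Counts were scaled with TMM factors in edgeR 4.0.16 (R 4.3.3) over the 16369 genes that reached 10 counts in any library. Log2 fold changes used a prior count of 2, and a gene was called at 2-fold. The quasi-likelihood test needs replicates and was not used, so no p-value is given. Intervals are exact Clopper-Pearson intervals of the pair of counts at 95% and, like the depth of each library, bear on counting error only. The procedure was tested on simulated data. Full counts were given for genes at least 2-fold apart from control that reached 50 counts in either library, for the 2 highest and 2 lowest in each comparison with control, and for Srebf1, Srebf2, Insig1, Scd1, Scd2, Fasn, Abca1 and Abcg1. Others were named after their values were seen. Genes and lists were chosen with earlier results of these data known. The alternatives were DESeq2 1.42.0 size factors, library size alone, other count minimums, a prior count of 0.5, a call at 1.5-fold and edgeR's exact test at an unadjusted p under 0.05, with the dispersion of the 4 libraries taken as 1 group. Shared stretches are the distinct 50-base runs of a gene's GENCODE M21 transcripts found in transcripts of other genes. Sequences were handled with Python 3.11.15 and pandas 2.3.3.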

Additional observations from a re-analysis of the deposited data

How the results depend on the processing

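No paired analysis was possible because each group has 1 library, and for the same reason no library could be left out. Of the 12 values followed here (the median log2 fold change of the 32 genes and the number at least 2-fold apart, in 6 comparisons), all 12 held with at least 10 counts in every library and with a prior count of 0.5, and all 6 counts held with a minimum of 50 counts in either library. With DESeq2's size factors 1 gene instead of 2 was at least 2-fold apart in sFD17 against control, and 1 instead of 2 in sFD17 against TP5. With library size alone the medians became −0.37 in sFD17 against control, 0.35 in FR17 against control, 0.64 in FR17 against sFD17 and −0.62 in sFD17 against TP5, and that of FR17 against TP5 turned from −0.03 to 0.16. The medians of all genes moved with them, to −0.23, 0.26, 0.52, −0.30 and 0.17. The count in FR17 against sFD17 then became 11 instead of 4, all higher, beside 25.7% of all genes. Without a filter 1 gene, Fdps, was at least 2-fold apart in FR17 against control, on 8 counts against 2. Its count is uncertain, and its interval with the main scaling, −0.77 to 4.83, held 0. Without a filter the medians became 0.20 in FR17 against control and 0.04 in FR17 against TP5, where the sign turned. The median was 0.30 in FR17 against sFD17, where 6 genes instead of 4 were at least 2-fold apart, all higher (5.75% of all genes). At 1.5-fold the counts against control were 2 with TP5, 7 with sFD17 and 1 with FR17, and they were 2 in FR17 against TP5, 12 in FR17 against sFD17 and 8 in sFD17 against TP5. Of all genes, 8.98% were higher and 11.8% lower at that fold in TP5 against control, 13.4% and 15.6% in sFD17 against control, 11% and 11.7% in FR17 against control, 14.4% and 10.1% in FR17 against TP5, 24.7% and 21.3% in FR17 against sFD17 and 15.4% and 16.4% in sFD17 against TP5. The exact test called 1 gene in sFD17 against control (Abca1), 1 in FR17 against sFD17 (Dhcr7) and 1 in sFD17 against TP5 (Idi1), beside 4.79%, 12.6% and 4.59% of all genes, and 0 in the other 3 comparisons. It compares libraries, not conditions. Genes with few counts, such as Tm7sf2, Elovl6 and Lss, have wide intervals, and the difference between mice cannot be estimated from these libraries.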
